A study of Mus musculus with 6 samples.

Results

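AP-1 is a family of dimeric transcription factors, and 9 of its genes are described here: the FOS genes Fos, Fosb, Fosl1 and Fosl2, the JUN genes Jun, Junb and Jund, and the BATF genes Batf and Batf3. They were chosen by name, as 9 of the 55177 genes with a transcript in the tables, and each was found once in GENCODE M21. The choice was made with earlier results of these data known. Their RNA was measured by mRNA sequencing in mouse CD4+ T cells, in 3 libraries labelled Wtap KO and 3 labelled wild type (WT). Wtap is a subunit of the nuclear complex that writes N6-methyladenosine (m6A) into mRNA, and the study asked what its loss does to T cell receptor signalling and survival. All cells were labelled C57BL/6J and shared 1 culture protocol. For the depletion of Wtap the labels give 4-hydroxytamoxifen at 1 µM for 24 h, with the same text for the WT libraries. The cells were then activated for 40 to 48 h with antibodies to CD3 (1 µg/mL) and CD28 (2.5 µg/mL). Th1 conditions came from IL-12 (10 ng/mL) and an antibody to IL-4 (10 µg/mL). Expansion in IL-2 (200 IU/mL) followed, and RNA was taken on day 4. The sources used here do not give the Cre driver, the deleted part of Wtap, whether WT cells carried Cre, the age of the mice, or whether libraries came from separate animals. The p-values therefore measure the spread between these libraries.

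AP-1 proteins share a basic region that binds DNA and a leucine zipper that joins a pair of them. JUN proteins can pair with each other or with FOS proteins, whereas FOS proteins need a JUN partner. BATF proteins lack a long activation domain, pair with JUN proteins and, with IRF4 or IRF8, bind composite sites in lymphocytes. In T cells the receptor and CD28 raise AP-1 through MAP kinases, and AP-1 binds next to NFAT at cytokine genes such as Il2. Fos, Fosb, Jun and Junb are immediate early genes, whose RNA rises within minutes of stimulation and decays fast.

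Jun and Batf3 were the members that passed the test below, so the 250 bases before their RefSeq starts (GRCm38.p6) are shown first. Capitals mark matches to TGANNTCA, an 8-base relative of the AP-1 site TGANTCA. Both motifs read alike on both strands, and they do not overlap each other. JUN is known to act on its own promoter through such an 8-base site. The Jun promoter lay at chr4:95052223-95052472 on the minus strand and the Batf3 promoter at chr1:191098164-191098413 on the plus strand.
Jun: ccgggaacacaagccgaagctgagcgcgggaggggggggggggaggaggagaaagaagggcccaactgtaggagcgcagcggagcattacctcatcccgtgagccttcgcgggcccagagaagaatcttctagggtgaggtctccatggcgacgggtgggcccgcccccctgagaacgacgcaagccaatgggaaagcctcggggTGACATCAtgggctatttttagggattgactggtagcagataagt
Batf3: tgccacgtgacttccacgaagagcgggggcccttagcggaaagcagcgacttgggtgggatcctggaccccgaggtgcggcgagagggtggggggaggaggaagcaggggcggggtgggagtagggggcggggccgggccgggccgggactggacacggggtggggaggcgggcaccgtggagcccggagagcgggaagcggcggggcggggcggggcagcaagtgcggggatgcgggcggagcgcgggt
The match in Jun began 45 bases before the start. Of the 8 members with a promoter in the table, Jun and Jund held TGANNTCA and 0 held TGANTCA in this window. RefSeq starts can differ from those of the GENCODE genes measured here. The Batf3 window lay inside the GENCODE gene, which starts at 191097847. The Jund window, chr8:70697489-70697738, lay before the GENCODE start at 70698949 and did not adjoin it. Among 27025 genes with a promoter, 13.5% held TGANNTCA and 7.82% held TGANTCA. The Batf3 window was richer in G and C, at 76.0% of its bases, against 61.2% in Jun. A match is a description of letters and not a measured binding site.

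Each library held between 32363139 and 44039467 estimated counts. Total Wtap RNA was at 114, 120 and 119 CPM (counts scaled to the size of the library) in the Wtap KO libraries and at 114, 107 and 94.3 CPM in the WT libraries. It did not pass the test (edgeR adjusted p = 0.371), and its mean was not lower in Wtap KO, so total Wtap RNA does not check the group labels. Which part of the gene was deleted is not given, and reads within it were not measured here. Library 3 of the Wtap KO group carried male RNA, with 63.3 CPM of the Y-linked Kdm5d. The other Wtap KO libraries had 2.83 and 3.10 CPM of it and the WT libraries 2.43 to 3.53 CPM. Xist, an X-linked RNA expressed in females, was at 3.81 CPM in Wtap KO 3. It was at 1980 and 2162 CPM in the other Wtap KO libraries and at 3160 to 4448 CPM in the WT libraries. By these genes the Wtap KO group held both sexes and the WT group did not. The part of sex in the results was not tested. Among the 8 T cell markers, summed levels were 1851 to 1959 TPM in Wtap KO and 2085 to 2194 TPM in WT. Of the 8 tested, 2 fell (Cd3g and Cd4), 0 rose and 6 did not pass, against 9.23% of all genes called. The log2 fold change was below 0 in 6 and above 0 in 2. Markers of CD8 T cells summed to 11.4 to 13.9 TPM in Wtap KO and 7.18 to 7.79 TPM in WT. Of the 2 tested, Cd8b1 rose and Cd8a did not pass. Granulocyte markers summed to 0.309 to 0.798 TPM in Wtap KO and 0.156 to 0.247 TPM in WT, with none of the 6 tested and S100a9 at 0 in every library. Macrophage and monocyte markers summed to 3.96 to 7.47 TPM in Wtap KO and 3.70 to 6.02 TPM in WT, and these ranges overlapped. Of the 7 listed, 3 were tested, of which 1 rose (Itgam) and 2 did not pass. The log2 fold change was above 0 in 2 of the 3 and below 0 in 1. The summed ranges of B cell, NK cell, and erythroid and platelet markers overlapped between the groups, and no tested gene of these lists passed. The part of other cells in the results below was not tested. TPM divides by transcript length before scaling and is the unit used here to compare genes with each other.

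Of the 8 members tested, 2 rose in Wtap KO, 0 fell and 6 did not pass. Over all 17610 genes tested, 9.23% passed, with 5.75% higher and 3.49% lower. The test was edgeR's quasi-likelihood test with Benjamini-Hochberg adjustment over all genes and a threshold of 0.05. The log2 fold change of Wtap KO over WT was above 0 in all 8, with a median of 0.69, while 49.9% of all genes tested lay above 0 and their median was -0.00058. In CPM the groups did not overlap in Jun, Junb, Batf and Batf3, 4 of the 8 tested, against 17.2% of all genes tested in that direction and 32.7% in either direction. The number of members past the threshold was 0 without Wtap KO 1, Wtap KO 2 or WT 2, 1 without Wtap KO 3 and 4 without WT 3. In bulk RNA a change in the share of cells of a type and a change in RNA per cell cannot be told apart.

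**Figure D1:**
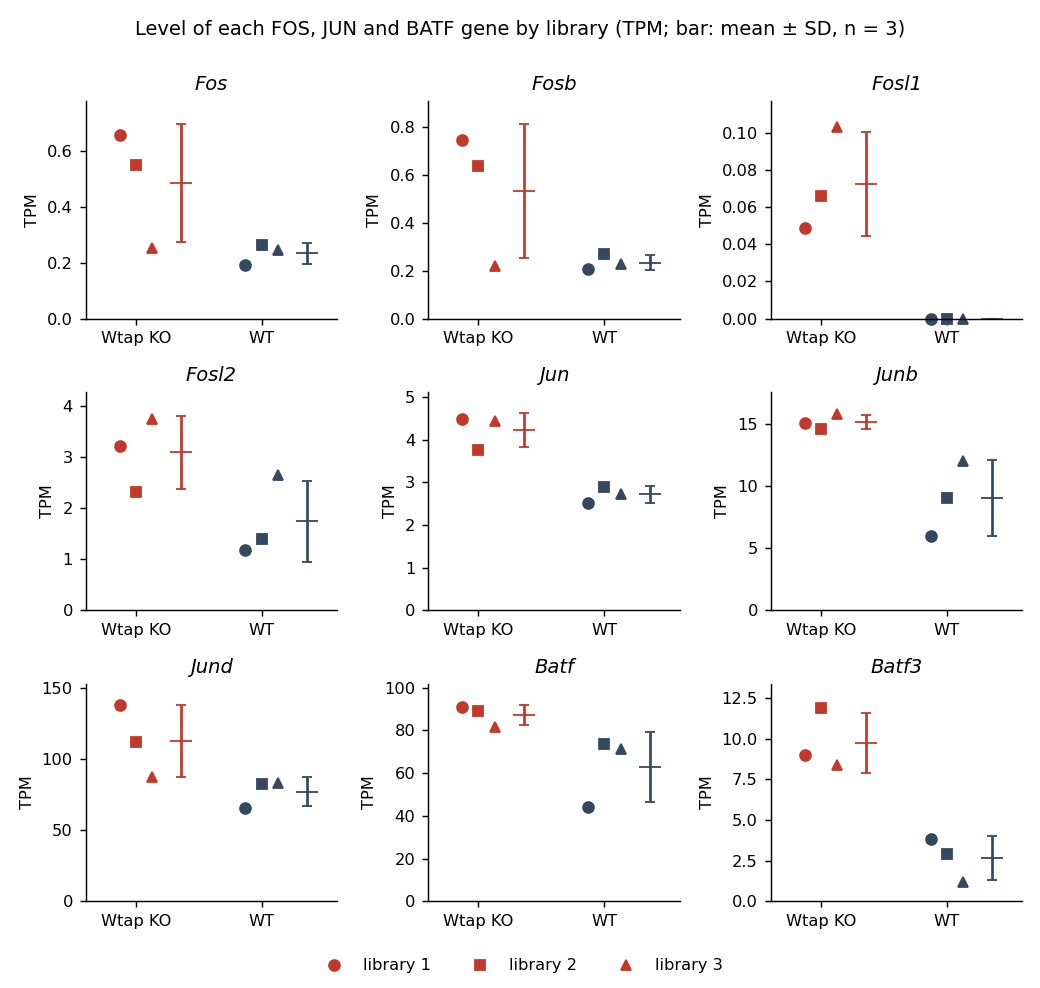
Level of the 9 genes in TPM (y axis, from 0, with its own scale in each panel), with Wtap KO left of WT. Each point is 1 library, its shape gives the library number, and the bar is the mean ± SD (n = 3). In Jun, Junb, Jund, Batf and Batf3 every Wtap KO library lies above every WT library, while in Fos and Fosb library 3 of Wtap KO lies among the WT libraries.

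By level, the family in these day 4 cells was mostly Jund and Batf. Jund averaged 113 ± 25.3 TPM (SD, n = 3) in Wtap KO and 77.3 ± 10.2 TPM in WT. Batf averaged 87.1 ± 4.79 TPM in Wtap KO and 63.1 ± 16.4 TPM in WT. The ranges of Jund and Batf overlapped in both groups, so their order was not separated by the spread. Junb came next, at 15.2 ± 0.598 TPM in Wtap KO and 9.02 ± 3.05 TPM in WT. In Wtap KO the order went on with Batf3, Jun and Fosl2, whose ranges did not overlap. In WT it went on with Jun, Batf3 and Fosl2, and there the 3 ranges overlapped one another. Fosb and Fos overlapped each other at 0.534 and 0.487 TPM in Wtap KO and at 0.234 and 0.234 TPM in WT. Fosl1 was last in both groups.

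Summed over the 9 genes, the level was 262, 235 and 202 TPM in the Wtap KO libraries, against 124, 173 and 174 TPM in the WT libraries. The groups did not overlap, and WT 1 was the lowest library. Most of the sum lay in Jund and Batf in both groups. Jund made up 47.9% ± 4.69 of the sum in Wtap KO and 49.6% ± 2.95 in WT, and Batf 37.6% ± 2.90 in Wtap KO and 39.8% ± 3.55 in WT. Batf3 made up 4.21% ± 0.813 in Wtap KO and 1.82% ± 1.23 in WT, with no overlap between the groups. Jund was 81.3% to 87.6% of the JUN family's TPM in Wtap KO and 85.0% to 88.6% in WT.

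**Figure D2:**
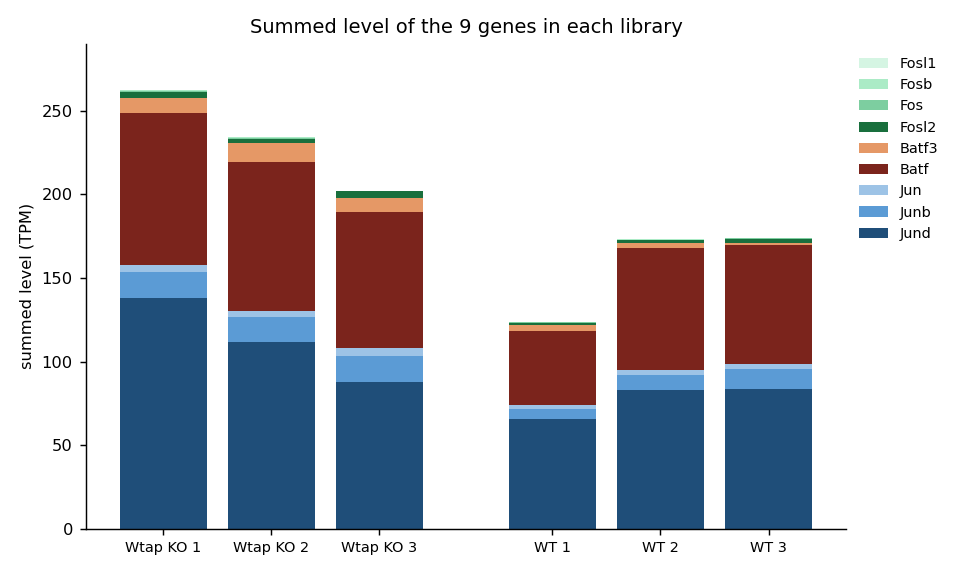
Summed level of the 9 genes in each library (y axis, TPM, from 0), Wtap KO libraries left of WT libraries, with each gene's part stacked. The Wtap KO libraries stand at 202 to 262 TPM and the WT libraries at 124 to 174 TPM, and Jund and Batf fill most of every bar.

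Among the FOS genes, which need a JUN partner, none of the 3 tested passed in edgeR (2 at an unadjusted p under 0.05, and 0 with DESeq2's adjusted p). The share of all genes at that unadjusted p is not given here. Fos was at 1.28, 1.06 and 0.487 CPM in the Wtap KO libraries and at 0.387, 0.50 and 0.518 CPM in the WT libraries. The first 2 Wtap KO libraries lay above all WT libraries, and the third lay among them. Its log2 fold change was 1.00 ± 0.39 (SE, edgeR adjusted p = 0.149). Fosb had the same pattern over libraries, with 2.52, 2.26 and 0.752 CPM in Wtap KO and 0.746, 0.938 and 0.818 CPM in WT. Its log2 fold change was 1.14 ± 0.43 (edgeR adjusted p = 0.131), and it passed without Wtap KO 3, the male library (adjusted p = 0.0298). Fosl2, the FOS gene with the highest level here, differed from Fos and Fosb in the Wtap KO group, where library 3 was its highest. It was at 15.6, 12.6 and 21.8 CPM in Wtap KO and at 6.57, 8.85 and 15.8 CPM in WT, and the groups overlapped. The fold change on the log2 scale, 0.68 ± 0.32, missed the threshold (edgeR adjusted p = 0.222), and the size depended on single libraries. It was 1.11 and passed without WT 3 (edgeR adjusted p = 0.0304), 0.43 without WT 1 (adjusted p = 0.438) and 0.44 without Wtap KO 3 (adjusted p = 0.509). Fosl1 held 3.2, 1.0 and 1.0 estimated counts in the Wtap KO libraries and 0 in each WT library, where a count of 0 allows up to 3 counts. It was not tested, and no fold change is given at this depth.

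Among the JUN genes, Jun rose in Wtap KO. Jun (ENSMUSG00000052684, GRCm38 chromosome 4, 95049034 to 95052222, minus strand) is a gene of 1 exon and encodes a strong activator of transcription. It was at 13.5, 11.9 and 13.3 CPM in the Wtap KO libraries and at 7.87, 9.10 and 8.86 CPM in the WT libraries. The libraries within each group lay close together and the groups did not overlap. The log2 fold change was 0.58 ± 0.14 (SE, edgeR adjusted p = 0.0351). The size stayed between 0.52 and 0.64 when single libraries were left out, but the call was lost without any 1 Wtap KO library or without WT 2 (edgeR adjusted p up to 0.146). It was also lost with limma on TPM values (limma adjusted p = 0.0685 to 0.148 over 3 settings). Junos, a noncoding gene on the opposite strand whose exons overlap Jun, was at 0.551 to 1.06 CPM in Wtap KO and 0.531 to 0.627 CPM in WT.

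Junb, a JUN protein with weaker activation that takes part in helper T cell differentiation, was at 24.99, 25.3 and 25.8 CPM in Wtap KO and at 10.2, 15.5 and 21.5 CPM in WT. The Wtap KO libraries were nearly alike and lay above WT libraries that spread widely, with WT 1 lowest and WT 3 highest. At 0.69 ± 0.23 (SE) its log2 fold change missed the threshold (edgeR adjusted p = 0.102). It passed with the DESeq2 Wald test (adjusted p = 0.0411) and, in edgeR, without WT 3, where it was 0.98 (adjusted p = 0.0161). It was 0.45 without WT 1 (edgeR adjusted p = 0.0766). Jund, which is less tied to stimulation than the other JUN genes, was at 210, 178 and 131 CPM in Wtap KO and at 102, 130 and 137 CPM in WT. In CPM, Wtap KO 3 lay below WT 3, while in TPM the groups did not overlap. Its log2 fold change was 0.49 ± 0.18 (edgeR adjusted p = 0.124). The antisense gene Gm11175, which overlaps Jund, was at 1.86 to 7.66 CPM in Wtap KO and 3.65 to 5.44 CPM in WT, and Wtap KO 3 was the lowest library of its group for both genes. Exons of Junb also overlap those of Prdx2 on the opposite strand, which averaged 128 CPM in Wtap KO and 146 CPM in WT. Exons of Fosl1 overlap those of Ccdc85b in the same way, at 3.56 CPM in Wtap KO and 2.13 CPM in WT. Whether counting used strand is not given in the sources used here, so reads in such overlaps cannot be told apart.

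Among the BATF genes, Batf3 rose and Batf did not pass. Batf3 (ENSMUSG00000026630, GRCm38 chromosome 1, 191097847 to 191108945, plus strand) is known as a factor that conventional dendritic cells of the cross-presenting type need, and is also expressed in activated T cells. It was at 6.11, 8.04 and 5.33 CPM in the Wtap KO libraries and at 2.54, 1.91 and 0.791 CPM in the WT libraries. The lowest Wtap KO library stood well above the highest WT library, and the WT libraries differed more among themselves, in relative terms, than the Wtap KO libraries. The log2 fold change was 1.89 ± 0.37 (SE; 3.72-fold, edgeR adjusted p = 0.0189), the highest of the 8 members tested. It lay between 1.54 and 2.28 when single libraries were left out. The call was lost without any 1 Wtap KO library or without WT 2 (edgeR adjusted p up to 0.0872), and with limma on TPM values without a filter (limma adjusted p = 0.1002).

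Markers of dendritic cells summed to 38.4, 52.1 and 43.2 TPM in the Wtap KO libraries and to 35.3, 21.5 and 11.3 TPM in the WT libraries, with no overlap. The WT libraries had the same order as in Batf3. In Wtap KO library 2 was the highest for both, but library 1 was the lowest for the markers and library 3 for Batf3. Of the 12 listed, 9 were tested, of which 2 rose (Cd74 and H2-Aa, genes of MHC class II presentation) and 7 missed the threshold, against 9.23% of all genes called. The log2 fold change was above 0 in 8 of the 9 and below 0 in 1, with a median of 1.00. Over all genes tested, 49.9% lay above 0. The groups did not overlap in 5 of the 9, against 32.7% of all genes tested in either direction. Among the other markers listed, not all of which are given here, Cd209a was at 0 in every library. Clec9a was at 0.105 to 0.221 CPM in Wtap KO and 0.0276 to 0.0818 CPM in WT. Its WT values are near the floor, since 3 counts are 0.0818 to 0.0938 CPM in the WT libraries. Xcr1 was at 0.620 to 0.983 CPM in Wtap KO and 0.525 to 0.627 CPM in WT, and the groups overlapped. The part of dendritic cells in the Batf3 result was not tested. Batf, which with IRF4 drives programs of activated T cells, was at 73.8, 75.5 and 65.2 CPM in Wtap KO and at 36.6, 61.7 and 63.0 CPM in WT. The groups did not overlap, but the lowest Wtap KO library exceeded the highest WT library only slightly, and WT 1 stood far below the other libraries. Its log2 fold change of 0.41 ± 0.20 (SE, edgeR adjusted p = 0.220) was 0.20 without WT 1. The TPM ratio of Batf to Batf3 was 10.1, 7.49 and 9.74 in the Wtap KO libraries and 11.5, 25.4 and 60.4 in the WT libraries.

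**Figure D3:**
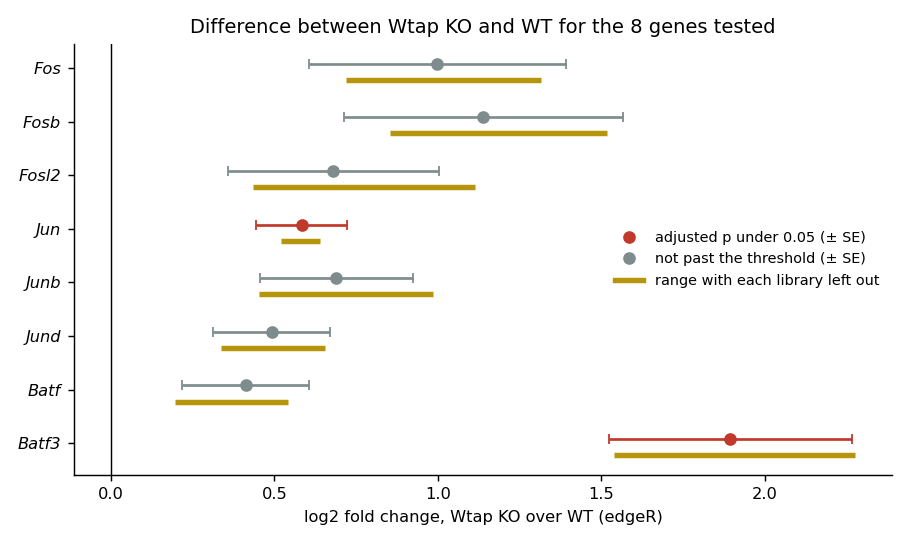
Log2 fold change of Wtap KO over WT (x axis) for the 8 members tested (y axis). Points are edgeR estimates with their SE, red where the adjusted p was under 0.05, and the ochre bar is the range with each library left out in turn. All points and bars lie above 0, from 0.41 for Batf to 1.89 for Batf3.

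The members did not follow a single order of libraries. WT 1 was the lowest WT library for 7 of the 8 members tested and the highest for 1, Batf3. In the Wtap KO group, library 3 was the lowest for 5 members and the highest for Fosl2 and Junb. In a search of 7904 protein-coding genes averaging 10 CPM or more, the profiles nearest to Jun over the 6 libraries were those of Zbtb21, Bag5 and Utp20. Their centred log2 profiles differed from that of Jun by a root mean square of 0.029, 0.045 and 0.050. Nearest to Batf3 were Rtp4, an interferon-induced gene, at 0.14, Dyrk3, a kinase, at 0.26 and Tex15 at 0.34. Rtp4 was at 103, 116 and 77.9 CPM in Wtap KO and at 34.2, 27.6 and 14.8 CPM in WT, with the libraries in the same order as in Batf3 in both groups.

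The 9 genes have 28 annotated transcripts in the tables, of which 6 had a mean of at least 1 TPM in a group. These were the main coding transcripts Jun-201, Junb-201, Jund-201, Batf-201, Batf3-201 and Fosl2-201. Of 11 member transcripts tested singly, 0 passed in edgeR, against 0.725% of all 47177 transcripts tested (0.504% higher). At an unadjusted edgeR p under 0.05 there were 4 of the 11, and the share of all transcripts at that level is not given here. With DESeq2, 3181 of the 47177 transcripts tested passed, Jun-201 and Batf3-201 among them. Batf3-201, the coding form, was at 7.79, 11.0 and 7.23 TPM in Wtap KO and at 3.34, 2.22 and 0.682 TPM in WT. The noncoding Batf3-205 was at 0.212 to 0.572 TPM in Wtap KO and 0.224 to 0.287 TPM in WT, so the coding form carried most of the difference in summed level. Fosl2-203, a form with a retained intron, was at 0.903, 0.514 and 0.225 TPM in Wtap KO and at 0.176, 0 and 0.322 TPM in WT, and the groups overlapped.

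Because Wtap serves m6A writing, the letters GGACT, the most common core of an m6A site, were searched on the RNA strand of the main coding transcripts. The tables hold no m6A measurement. Shown in capitals is the first GGACT after the stop codon, with 8 bases on either side, from GENCODE M21 transcripts (GRCm38), for members that differ in level and response. The Jun window lay at chr4:95050129-95050149 (minus strand), the Jund window at chr8:70700099-70700119, the Batf window at chr12:85708891-85708911 and the Fosl2 window at chr5:32153316-32153336 (all plus strand).
Jun: cacaagatGGACTgggttgcg
Jund: gcatgcgcGGACTagctgcgg
Batf: ggtcagagGGACTtaaggcct
Fosl2: acccggtgGGACTtagtggtg
Batf-201 held 4.19 GGACT per kb, Jund-201 2.40, Jun-201 2.20 and Fos-201 1.90. Junb-201 held 1.66, Fosb-207 1.42 and Fosl2-201 1.22. Batf3-201, the transcript of the member with the largest fold change, held 0. Fosl1-203 of the untested Fosl1 also held 0, but it is a short form of 357 bases, seen at 0.103 TPM in Wtap KO 3 only. No value is given here for the longer coding form Fosl1-201 (1864 bases). Among 12885 tested protein-coding genes, the main coding transcript had a median of 1.03 per kb (quartiles 0.572 and 1.54), 87.4% held at least 1 and 53.8% held 1 after the stop codon. The motif alone does not show that a site is methylated.

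Other bZIP proteins that can join or compete with AP-1 were measured in a list of 16 genes. This list and those in the paragraphs after it were chosen with earlier results of these data known. Their shares called are therefore descriptions and not tests of the lists. In Wtap KO, 2 of the 15 tested rose and 1 fell, 12 missed the threshold, and the median log2 fold change was 0.43. The share called was 20.0%, against 9.23% of all genes tested. Nfe2l1, a regulator of proteasome genes, rose to 32.6 ± 0.384 CPM in Wtap KO, against 16.7 ± 2.02 CPM in WT (SD, n = 3; edgeR adjusted p = 0.00404). Cebpb, a factor of inflammatory genes, rose to 2.89 ± 0.570 CPM in Wtap KO, against 1.57 ± 0.110 CPM in WT. Atf2, a partner of JUN at 8-base sites, fell to 87.7 ± 5.43 CPM in Wtap KO, against 116 ± 6.08 CPM in WT. Bach2, a repressor that competes with AP-1 in T cells, averaged 331 ± 32.2 CPM in Wtap KO and 246 ± 21.3 CPM in WT (edgeR adjusted p = 0.0507), and was named after its value was seen. Cebpb lost the threshold without any 1 library (edgeR adjusted p up to 0.194) and Atf2 without any 1 Wtap KO library or WT 2 (up to 0.169). Both calls were also lost with length-scaled offsets (edgeR adjusted p = 0.133 for Atf2 and 0.0596 for Cebpb) and with limma on TPM values. In limma the log2 fold change of Atf2 was -0.26 to -0.27 (limma adjusted p = 0.238 to 0.400) and that of Cebpb 0.55 to 0.86 (0.0681 to 0.157). Atf2 missed the threshold without a filter on low counts as well (edgeR adjusted p = 0.0509), and Cebpb with upper-quartile factors (edgeR adjusted p = 0.0528). Nfe2l1 missed it with limma without a filter (limma adjusted p = 0.0809).

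Of 28 genes of the MAP kinase route that leads to AP-1, 1 rose, 2 fell and 25 missed the threshold, with a median log2 fold change of -0.08. The share called, 10.7%, was close to the 9.23% of all genes tested. Mapk3, which encodes ERK1 and acts upstream of Fos, fell to 36.5 ± 1.83 CPM in Wtap KO, against 49.1 ± 4.21 CPM in WT (SD, n = 3; log2 fold change -0.43 ± 0.11, SE, edgeR adjusted p = 0.0455). Mapk11, a p38 kinase, rose to 11.6 ± 0.527 CPM in Wtap KO, against 7.54 ± 1.05 CPM in WT. Mapk8, the kinase JNK1 that phosphorylates JUN, averaged 22.4 ± 2.42 CPM in Wtap KO and 23.6 ± 0.716 CPM in WT (edgeR adjusted p = 0.753). Mapk11 lost the threshold without any 1 Wtap KO library or WT 2 (edgeR adjusted p up to 0.155), and Mapk3 without any 1 library other than WT 1 (up to 0.172). Both were also lost with length-scaled offsets (edgeR adjusted p = 0.0669 for Mapk11 and 0.0684 for Mapk3) and with limma on TPM values (limma adjusted p = 0.0583 to 0.290 over both genes). Mapk3 missed the threshold without a filter on low counts as well (edgeR adjusted p = 0.0630).

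Of 18 genes of AP-1 turnover and partner factors, 2 rose, 1 fell and 15 did not pass, with a median log2 fold change of 0.04. The share called was 16.7%, against 9.23% of all genes tested. Det1, which joins the COP1 ubiquitin ligase that targets JUN, rose to 28.1 ± 3.70 CPM in Wtap KO, against 17.5 ± 2.65 CPM in WT (SD, n = 3). Nfatc2, an NFAT partner of AP-1, rose to 192 ± 29.2 CPM in Wtap KO, against 139 ± 3.23 CPM in WT. Ndfip2, an activator of the ligase ITCH, fell to 29.3 ± 0.136 CPM in Wtap KO, against 40.2 ± 2.88 CPM in WT. Itch, the ligase for JUN and JUNB itself, averaged 92.3 ± 9.85 CPM in Wtap KO and 118 ± 6.46 CPM in WT (edgeR adjusted p = 0.0840). Nfatc1 averaged 223 ± 6.64 CPM in Wtap KO and 185 ± 21.5 CPM in WT (edgeR adjusted p = 0.162). Irf4, the partner of BATF, was at 296, 307 and 133 CPM in Wtap KO and at 253, 213 and 73.4 CPM in WT. Library 3 was the lowest in both groups, the groups overlapped, and Irf4 did not pass (edgeR adjusted p = 0.635). Det1 and Ndfip2 lost the threshold without any 1 Wtap KO library or WT 2, and Nfatc2 without Wtap KO 1, Wtap KO 2, WT 2 or WT 3 (edgeR adjusted p up to 0.161 over the 3 genes). With limma on TPM values all 3 were lost (limma adjusted p = 0.0525 to 0.207). Ndfip2 was also lost without a filter on low counts (edgeR adjusted p = 0.0506), and Nfatc2 with upper-quartile factors (0.0512) and length-scaled offsets (0.0649). Itch passed with the DESeq2 Wald test (adjusted p = 0.0424).

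Of 25 known target genes of AP-1 and BATF, 22 were tested, of which 4 rose and 1 fell, 17 missed the threshold, and the median log2 fold change was 0.34. The share called was 22.7%, against 9.23% of all genes tested. Il21, a cytokine that BATF activates, had by far the highest fold, at 13.4 ± 1.96 CPM in Wtap KO and 0.370 ± 0.356 CPM in WT (SD, n = 3; edgeR adjusted p = 0.00117). Il23r, a chain of the IL-23 receptor, was at 2.24 ± 0.338 CPM in Wtap KO and 0.701 ± 0.290 CPM in WT. Tnf was at 18.8 ± 1.52 CPM in Wtap KO and 9.89 ± 2.29 CPM in WT, and Lif at 14.6 ± 7.74 CPM in Wtap KO and 4.31 ± 1.46 CPM in WT. Ctla4, an inhibitory receptor, fell to 102 ± 7.49 CPM in Wtap KO, against 186 ± 35.7 CPM in WT. Il2 averaged 5.95 ± 1.69 CPM in Wtap KO and 3.48 ± 2.05 CPM in WT (edgeR adjusted p = 0.294). Ifng averaged 0.687 ± 0.268 CPM in Wtap KO and 0.615 ± 0.297 CPM in WT (edgeR adjusted p = 0.838). Of 20 targets with a promoter in the table, 5 held TGANTCA in the 250 bases before the start: Il17a, Lif, Prdm1, Gzmb and Plaur. TGANNTCA was held by 4: Il2ra, Il4, Il17a and Tnf. Among all genes with a promoter, 7.82% held TGANTCA and 13.5% held TGANNTCA. Of the targets called above, Lif was in the first set and Tnf in the second. Il23r and Tnf lost the threshold without single Wtap KO libraries, Tnf also without WT 2, Ctla4 without Wtap KO 1 or 3, and Lif without any 1 library other than Wtap KO 3 (edgeR adjusted p up to 0.209 over the 4 genes). Il23r and Lif were also lost with limma on TPM values (limma adjusted p = 0.0538 to 0.232), Lif without a filter on low counts (edgeR adjusted p = 0.222), and Tnf and Ctla4 with limma without a filter (limma adjusted p = 0.0986 and 0.120). Il21 and Nfe2l1 stayed past the threshold without each library in turn.

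**Figure D4:**
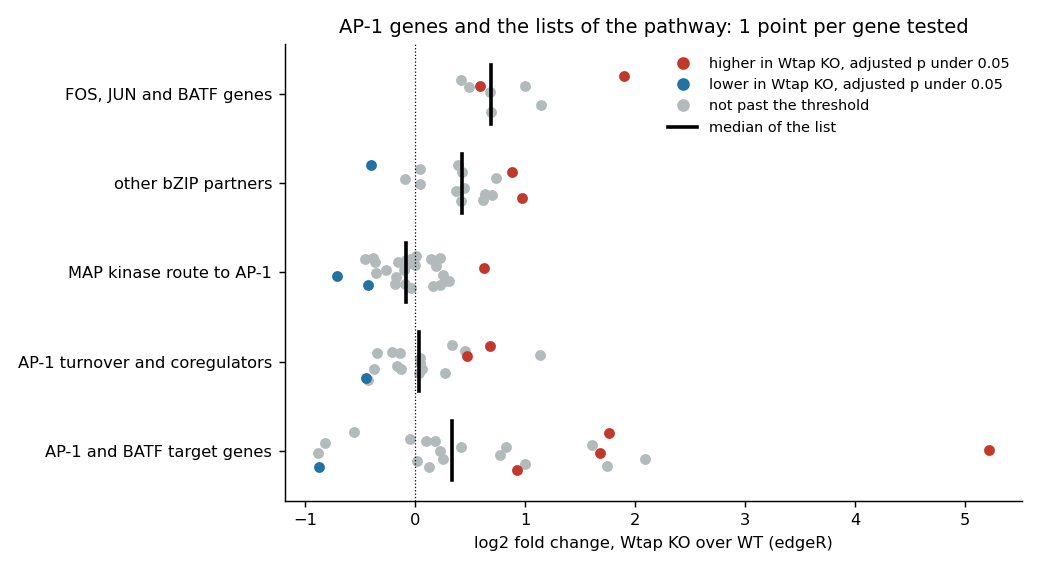
Log2 fold change of Wtap KO over WT (x axis) for each tested gene of the 9 members and of the lists of partners, kinases, turnover factors and targets (y axis). Each point is 1 gene, coloured where its adjusted p was under 0.05, and black bars are medians, at 0.69 for the members, 0.43 for other bZIP partners, -0.08 for kinases, 0.04 for turnover and partner factors and 0.34 for targets.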

How the data were processed

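Per the labels' protocols, a Lexogen SENSE kit was used for the mRNA libraries, with paired reads of 50 bp. The authors deposited 1 table per library with estimated counts, TPM values and lengths for 142647 transcripts. The submitters' processing notes name kallisto 0.44.0, DESeq2 and the build GRCm38 (mm10). Neither the annotation release nor the strand setting is stated there. In the deposited tables estimated counts can be fractional, since kallisto splits reads between transcripts, and the deposited TPM values are scaled by effective length to a fixed total per library. Lengths were used only for length-scaled offsets.

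Transcripts were matched without version to GENCODE M21 (99.1% matched), and the estimated counts of a gene's transcripts were added and rounded. Genes were tested with edgeR 4.0.16 in R 4.3.3 (quasi-likelihood, robust, TMM, filterByExpr, genotype as the only term). CPM uses TMM library sizes, and SE is the absolute log2 fold change over the square root of F. Single transcripts were tested the same way. The fits were tested on simulated data. Alternatives were other size factors and filters, DESeq2 1.42.0, limma 3.58.1 on log2(TPM + 1) and log2(TPM + 0.1), length offsets, a replicate block and each library left out. Likeness used log2(CPM + 0.1). Members and lists were chosen with earlier results of these data known. Named genes were all members, up to 6 called genes per list, and Nfatc1, Irf4, Itch, Mapk8, Il2 and Ifng. 1 called gene of the kinase list is not reported here. Floors cover counting error only.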

Additional observations from a re-analysis of the deposited data

How the results depend on the processing

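The log2 fold change stayed above 0 in all 130 values of the 8 tested members under the alternatives. The number of members past the threshold was 2 in edgeR, 1 (Batf3, with Jun lost) with limma on log2(TPM + 1) or log2(TPM + 0.1), 0 with limma without a filter, and 0 to 4 with each library left out. The number of genes past it was 1626 in edgeR (62.2% higher), 2576 with DESeq2 (53.0% higher), 806 and 850 with limma on log2(TPM + 1) and log2(TPM + 0.1) (74.4% and 72.9% higher), 210 with limma without a filter (78.1% higher), and 361 (without Wtap KO 2) to 2282 (without WT 1). The number of transcripts was 342 in edgeR, 3181 with DESeq2 and 0 to 17 with each library left out. Over all alternatives, the genes past it numbered 0 to 4 among other bZIP proteins (3 in edgeR), 0 to 4 among kinases (3), 0 to 6 among turnover and partner factors (3) and 1 to 10 among targets (5). The cause was not tested. The labels do not say whether replicate numbers pair the libraries. Same-numbered deviations from the group means correlated at -0.21, 0.083 and 0.14, against -0.31 to 0.24 for the other pairs. With so few libraries these values cannot decide it. With the replicate block, 1061 genes, 1 member (Batf3) and 0 transcripts passed, and Jun was lost (edgeR adjusted p = 0.0805). Atf2, Cebpb, Mapk11, Mapk3, Det1, Ndfip2 and Nfatc2 were lost with it as well (edgeR adjusted p = 0.0697 to 0.0992). Nfe2l1, Il21, Il23r, Tnf, Lif and Ctla4 stayed past the threshold. The log2 fold change of Mapk8, at -0.08 in edgeR, turned to 0.0061 with length offsets, 0.055 and 0.061 with limma at the larger and smaller pseudocount, 0.055 with limma without a filter and lay between -0.14 and 0.012 (without Wtap KO 1) with each library left out. Ifng, at 0.18, turned to -0.20 without Wtap KO 3 and -0.10 without WT 3, within a range of -0.20 to 0.60 over libraries left out. The TPM tests included 6 members with a filter, since Fos and Fosb lay under it. Without that filter their log2 fold changes were 0.26 and 0.30 on the log2(TPM + 1) scale.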
